A study of Mus musculus with 2 samples.

Results

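The 10 carbonic anhydrase genes Car1, Car2, Car3, Car4, Car5b, Car6, Car8, Car9, Car12 and Car13 were followed in polyA RNA of the subcutaneous fat pad of mice, which is white adipose tissue. They were found by gene symbol among 43346 annotated genes, and all 10 were present in the tables of both libraries. Another 6 genes of the family, Car5a, Car7, Car10, Car11, Car14 and Car15, were measured for comparison. The series holds 2 libraries of a single group, labelled as biological replicates 2 and 1, and no treatment or genotype is contrasted. Per the labels, both are fat pads of C57BL/6J littermates of mixed sex, adult at 8 weeks, with a shared donor record and an unknown health state, so that how many animals stand behind each library is not given. Differences below are between these libraries, which may vary for technical or biological reasons.

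Carbonic anhydrases interconvert carbon dioxide and water with bicarbonate and a proton, most of them through a zinc ion held by histidines in the active site. The isoforms differ mainly in where they work: in the cytosol, in mitochondria, on the outer cell surface or in secretions. In fat cells, bicarbonate is a substrate of acetyl-CoA carboxylase, an early enzyme of fatty acid synthesis, and of pyruvate carboxylase. Car3, an isoform of low catalytic activity, is a well known abundant protein of rodent adipocytes and slow muscle.

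The libraries held 57500952 counts on annotated genes in replicate 2 and 53601200 in replicate 1. They were unlike each other, with a common biological coefficient of variation of 64.7%. All 8 adipocyte markers reached a level of 1 TPM (a share of all transcripts, corrected for their length) in both libraries, which fits the labelled tissue, with a summed level of 41221.5 TPM in replicate 2 and 19274.3 TPM in replicate 1. Markers of epithelium summed to 13.8 TPM in replicate 2 and 733 TPM in replicate 1, and those of uterus to 37.9 TPM and 1040 TPM in the same order. Replicate 1 thus holds transcripts that the label of a fat pad does not name. All marker lists were chosen with earlier results of these data known, so their directions are not independent evidence. The labels state pooled males and females, but 4 Y-linked genes had 4 and 6 counts in replicates 2 and 1, against 25266 and 45378 counts of Xist, an RNA of female cells.

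The regions in front of 3 members are shown because these members differed in direction or size between the libraries, and a short stretch of Car9 because it holds the core letters bound by hypoxia-inducible factor. RefSeq promoter entries were matched for 5 of the 10 members (Car4, Car5b, Car6, Car9 and Car12, build GRCm38.p6). Each sequence is written 5′ to 3′ on the strand of its gene. Capitals mark matches, on either strand, to ACGTG or GCGTG (the core letters of the hypoxia response element), AGGTCA (a nuclear receptor half-site), GGGCGG (the GC box) or TATAAA (the TATA box). Where CACGTG occurs, it counts on both strands. The first 3 windows are the 250 bases upstream of the RefSeq start.
Car4 (chr11:84957504-84957753, plus strand): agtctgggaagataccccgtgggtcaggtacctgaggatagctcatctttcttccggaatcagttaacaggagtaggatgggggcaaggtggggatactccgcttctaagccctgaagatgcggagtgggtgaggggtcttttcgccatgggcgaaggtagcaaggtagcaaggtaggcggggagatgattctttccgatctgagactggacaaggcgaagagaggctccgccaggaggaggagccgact
Car5b (chrX:164028011-164028260, minus strand): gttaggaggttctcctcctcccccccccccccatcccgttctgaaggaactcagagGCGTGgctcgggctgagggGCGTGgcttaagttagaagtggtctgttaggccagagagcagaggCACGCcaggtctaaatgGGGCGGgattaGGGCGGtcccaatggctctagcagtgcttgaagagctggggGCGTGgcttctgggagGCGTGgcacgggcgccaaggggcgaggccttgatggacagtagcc
Car12 (chr9:66713436-66713685, plus strand): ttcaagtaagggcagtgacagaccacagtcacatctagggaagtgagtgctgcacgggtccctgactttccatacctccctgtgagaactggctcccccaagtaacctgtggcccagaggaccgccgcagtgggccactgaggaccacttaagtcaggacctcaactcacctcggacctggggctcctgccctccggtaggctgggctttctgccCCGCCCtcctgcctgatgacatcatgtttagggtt
Car9 (chr4:43506995-43507024, plus strand, 30 bases): cctatttccgatgCACGTacagcccgtcca

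The Car5b window held GCGTG 5 times and GGGCGG 2 times, while 28.2% and 32.7% of 32851 RefSeq promoter windows of the same length held these letters at least once. The Car12 window held GGGCGG once, and the Car4 window none of the 5 motifs. In Car9, ACGTG lay on the opposite strand, beginning 18 bases before the RefSeq start, in a stretch that GENCODE places inside the transcript Car9-201. The Car6 window, not shown, also held ACGTG, on both strands as CACGTG, beginning 149 and 148 bases before the RefSeq start, and GGGCGG once. ACGTG was present in 16.6% of the windows. AGGTCA and TATAAA, which 14.02% and 12.4% of windows held, were in none of the 5 member windows. These matches describe letters and show no binding.

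Transcripts of the family were almost all Car3. The 10 members summed to 17897.1 TPM in replicate 2 and 4822.65 TPM in replicate 1, and Car3 held 99.1% and 96.0% of these sums (97.6 ± 2.16%, SD, n = 2). By counts, with no correction for length, Car3 held 98.4% of the members' reads in replicate 2 (exact Clopper-Pearson 95% interval 98.36 to 98.41%) and 94.9% in replicate 1 (94.80 to 94.98%). Such intervals cover counting error only. All 10 members together took 1.69% of the counts on annotated genes in replicate 2 (1.685 to 1.692%) and 0.436% in replicate 1 (0.434 to 0.438%).

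**Figure D1:**
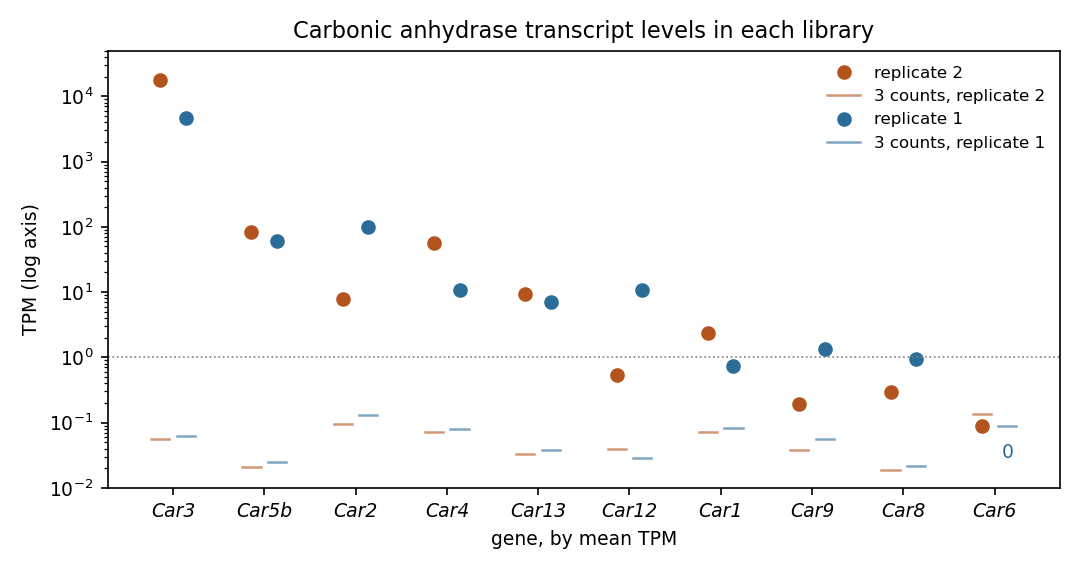
Level of each member in TPM on a log axis, ordered by mean TPM, with a point for replicate 2 (left) and one for replicate 1 (right); short bars give the TPM that 3 counts would have and the dotted line marks 1 TPM. Car3 stands at 17735.5 and 4631.52 TPM, and Car6, listed at 0 in replicate 1, lies under the bar of 3 counts in both libraries.

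A level of at least 1 TPM in both libraries was reached by 5 of the 10 members, Car2, Car3, Car4, Car5b and Car13, while 29.4% of all annotated genes reached it. Car1 passed in replicate 2 alone, Car9 and Car12 in replicate 1 alone, and Car6 and Car8 in neither. By mean TPM the order was Car3, Car5b, Car2, Car4, Car13, Car12, Car1, Car9, Car8 and Car6. The values of neighbours in this order overlapped between the libraries, except that Car3 lay above Car5b, Car4 above Car13 and Car8 above Car6 in every value. The order is therefore loose: Car2 lay below Car13 in replicate 2 and next to Car3 in replicate 1.

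Without Car3, the make-up of the family differed between the libraries, and by how much depended on the measure. The other 9 members summed to 162 TPM in replicate 2 and 191 TPM in replicate 1 (176 ± 20.9 TPM, SD, n = 2), a narrow range beside that of Car3. By counts the order of the libraries was reversed, with 15679 (0.0273% of the counts on annotated genes) in replicate 2 and 11938 (0.0223%) in replicate 1. Of the TPM sum, 52.1% in replicate 2 was the mitochondrial gene Car5b, 35.1% the cell surface gene Car4, 5.74% Car13 and 4.91% Car2. In replicate 1, 51.9% was the cytosolic gene Car2, 31.6% Car5b, 5.60% Car12 and 5.56% Car4. By counts, with no correction for length, Car5b led in both libraries, with 76.3% in replicate 2 and 61.3% in replicate 1, and Car2 held 1.58% and 19.2%. With counts divided by the length of each gene's longest transcript, a measure chosen after the values were seen, Car5b held 57.8% and 48.7% and Car2 2.30% and 29.4%. Car2 had the higher share in replicate 1 and Car4 in replicate 2 by all 3 measures, whereas Car2 stood above Car5b only by TPM, in replicate 1. By place of work, cell surface members (Car4, Car9 and Car12) held 35.5% of the TPM without Car3 in replicate 2 and 11.9% in replicate 1. Their share was 15.7% and 13.5% by counts and 32.1% and 15.1% by longest transcript, so the size of this difference rests on the length correction.

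**Figure D2:**
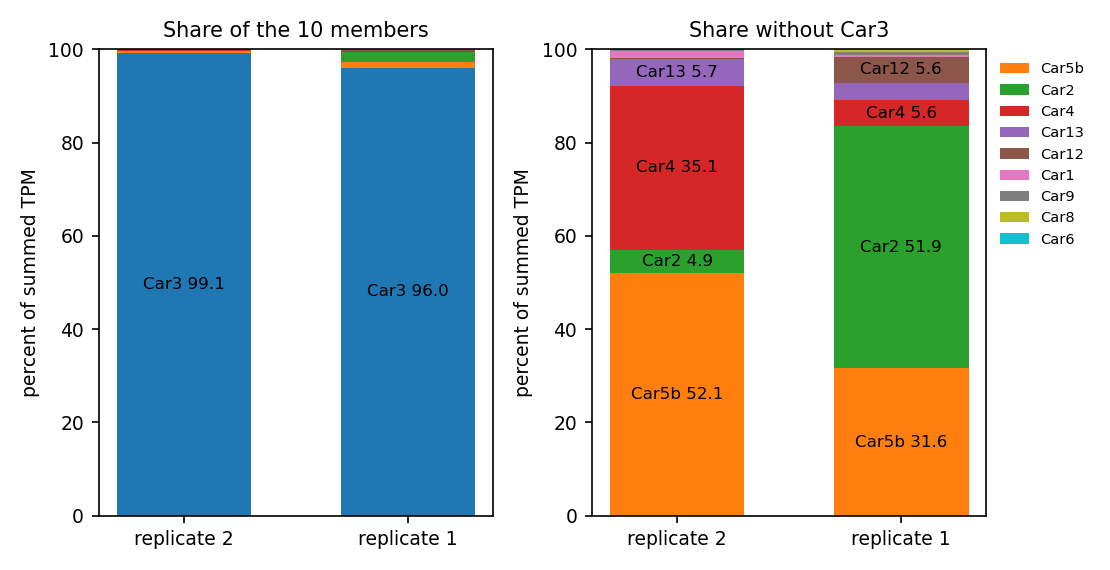
Percent of summed TPM, not of counts, taken by each gene in replicate 2 (left bar of each panel) and replicate 1 (right bar), over the 10 members and over the 9 without Car3; labels give shares above 4%. Car3 fills 99.1% and 96.0% of the first panel, and Car4 (35.1% and 5.6%) and Car2 (4.9% and 51.9%) differ in opposite directions in the second.

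To set the libraries against each other, rounded counts were scaled with TMM, a factor that evens out the bulk of genes, and the ratio of replicate 2 over replicate 1 was taken with an exact Clopper-Pearson 95% counting interval. TPM carries no such factor and divides by a length estimated in each library, and its ratios differ from those of scaled counts. To be called over 2-fold apart, a gene needed 100 scaled counts on average and an interval that did not reach back to 2-fold. By that rule 5 of the 6 members with enough counts were apart, with Car3, Car4 and Car5b higher in replicate 2 (3 members) and Car2 and Car12 higher in replicate 1 (2 members). Among 13422 genes tested, 23.1% were apart, 10.4% towards replicate 2 and 12.7% towards replicate 1. Car12, with 47.6 scaled counts in replicate 2 and 1000.2 in replicate 1, reached the minimum through replicate 1. The ratio of such a gene has to lie beyond 2-fold, although its interval need not. Without the 682 genes in that position, 4 of 5 members and 19.2% of 12740 genes were apart. The median log2 ratio over all genes tested was 0.03, and the median of its absolute size 0.55. The other 4 members, Car1, Car6, Car8 and Car9, had too few counts for the rule. No p-value was computed, because each side is 1 library.

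**Figure D3:**
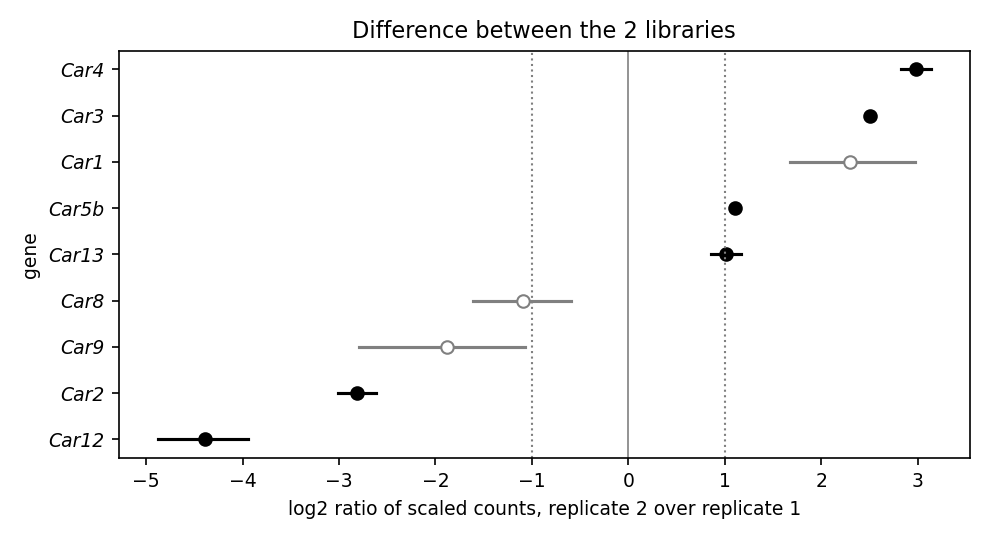
Log2 ratio of scaled counts, replicate 2 over replicate 1, for the 9 members with counts in both libraries; bars are 95% counting intervals, dotted lines mark 2-fold, and open grey points are members with a mean scaled count under 100. Car4 and Car3 lie at 2.98 and 2.51, Car12 and Car2 at -4.39 and -2.81.

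Among the cytosolic enzymes, Car3 (ENSMUSG00000027559.5, GRCm38 chromosome 3, 14863512 to 14872523, plus strand) had 17735.5 TPM from 955193 counts in replicate 2 and 4631.52 TPM from 221672 counts in replicate 1 (11183.5 ± 9266 TPM, SD, n = 2). Its rank by TPM among all annotated genes was 5 in replicate 2 and 18 in replicate 1. Its ratio was 5.69 (95% counting interval 5.66 to 5.71), so the libraries differ by far more than counting error. The ratio lay above 98.8% of the genes tested.

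The adipocyte markers differed alongside. All 8 were over 2-fold higher in replicate 2 (7 with total counts, or with the total of ERCC spike-in RNAs added to each sample, in place of TMM). Their median log2 ratio was 2.51, and that of Car3 was 2.51 as well. The leading marker Cfd, the adipokine adipsin, had 16533.3 TPM in replicate 2 and 12565.9 in replicate 1. The fatty acid carrier Fabp4 had 6723.23 and 1890.36 TPM in the same order, and lipoprotein lipase, Lpl, 5361.94 and 1175.47. Within a library, Car3 stood to adiponectin (Adipoq) at 4.94 to 1 by TPM in replicate 2 and at 4.64 to 1 in replicate 1, and to Fabp4 at 2.64 and 2.45 to 1. To Cfd it stood at 1.07 to 1 in replicate 2 and 0.369 to 1 in replicate 1, and to leptin (Lep) at 18.5 and 52.4 to 1, so that the ratio was even for some adipocyte genes and uneven for others. Fewer adipocytes and less Car3 RNA per adipocyte cannot be told apart in bulk tissue.

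Car3 is also a gene of slow muscle. None of 6 slow muscle markers reached 1 TPM in both libraries. They summed to 1.69 TPM in replicate 2 and 3.98 TPM in replicate 1, and their 3 highest members were Tnnt1 (0.32 and 2.58 TPM), Myl3 (0.48 and 1.07) and Tnnc1 (0.54 and 0.16). The slow myosin gene Myh7 was listed at 0 in replicate 2 and at 0.02 TPM in replicate 1. Of 8 genes listed for fast muscle 1 reached 1 TPM in both, the skeletal actin gene Acta1, with 115 and 203 TPM in replicates 2 and 1. Acta1 is not particular to fast fibres, so the sum of this list does not separate fast from slow muscle. Next came Tnni2 (0.44 and 26.2 TPM) and Tnnt3 (0.27 and 4.62), and Tnni2 was the 1 over 2-fold apart, higher in replicate 1. The list's median log2 ratio over its 2 eligible members was -2.54. The fast list summed to 117 TPM in replicate 2 and 238 TPM in replicate 1, mostly Acta1, whose ratio of scaled counts was 0.876 and not called. Tnnc1 went the other way, with 12 counts in replicate 2 and 3 in replicate 1. The part of muscle in the level of Car3 was not tested.

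Car2 (ENSMUSG00000027562.8, chromosome 3, 14886273 to 14900770, plus strand), the fast cytosolic enzyme of red cells, kidney and many epithelia, went the other way. It had 7.93 TPM from 248 counts in replicate 2 and 99.3 TPM from 2296 counts in replicate 1 (53.6 ± 64.6 TPM, SD, n = 2). Scaled counts were 7.02-fold higher in replicate 1 (95% counting interval 6.15 to 8.03), lower in replicate 2 than all but 4.60% of the genes tested.

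The markers of red cells, epithelium and uterus were set beside it, from lists chosen with earlier results of these data known. Of 9 erythroid markers 5 reached 1 TPM in both libraries, with a median log2 ratio of 0.89, and 2 were over 2-fold higher in replicate 2 (0 with total counts or the spike-in total) and 0 in replicate 1. The haemoglobin genes Hba-a2 (1797.03 and 1265.78 TPM), Hbb-bs (1282.64 and 1044.37) and Hba-a1 (691 and 477) led them in replicates 2 and 1, so haemoglobin and Car2 differed in opposite directions, with the near-identical Hba genes able to share reads. Of 8 epithelial markers 2 reached 1 TPM in both, and replicate 1 had all 8 over 2-fold higher. Their log2 ratios had a median of -7.30, and among them were the keratins Krt19 (10.3 and 223 TPM) and Krt8 (1.87 and 169) and the claudin Cldn3 (0.39 and 126). The 8 uterus markers were likewise all over 2-fold higher in replicate 1 (median -4.94, 4 of them at 1 TPM in both), led by Wfdc2 (0.14 and 380 TPM), Hoxa10 (14.2 and 164) and Esr1 (18.2 and 156), and Foxa2 had 0 counts in replicate 2. As with Car12, 6 of the epithelial and 3 of the uterus markers reached the minimum through replicate 1, so their ratios had to lie beyond 2-fold. The same held for Slc26a7, Slc26a9, Ptprz1, Tnni2 and Aqp5 among the other lists. The part of these cells in the level of Car2 was not tested.

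Car1 (ENSMUSG00000027556.11, chromosome 3, 14766216 to 14808368, minus strand), the cytosolic enzyme of red cells and colon, was low, with 2.38 TPM from 101 counts in replicate 2 and 0.74 TPM from 27 counts in replicate 1. Its ratio of 4.94 (95% counting interval 3.20 to 7.85) lay beyond 2-fold, but its mean scaled count of 70.4 was under the minimum. Car13 (ENSMUSG00000027555.8, chromosome 3, 14641727 to 14663002, plus strand), a cytosolic enzyme of many tissues, differed least of the 6 members with enough counts. It had 9.27 TPM from 852 counts in replicate 2 and 7.13 TPM from 559 counts in replicate 1 (8.20 ± 1.51 TPM, SD, n = 2). Its ratio of 2.01 (1.81 to 2.24) was not called, but lay above 87.8% of the genes tested. The 4 cytosolic enzymes Car13, Car1, Car3 and Car2 lie in this order within 259044 bases of chromosome 3, yet neighbours were unlike: Car3 and Car2, with 13749 bases between them on the same strand, were over 2-fold apart in opposite directions. Car8 (ENSMUSG00000041261.9, chromosome 4, 8143362 to 8239041, minus strand) is a family member without enzyme activity, known from Purkinje cells of the cerebellum. It had 0.29 TPM from 46 counts in replicate 2 and 0.94 TPM from 129 counts in replicate 1, and its scaled counts were 2.13-fold higher in replicate 1 (1.51 to 3.04), too few counts for a call.

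The mitochondrial enzyme Car5b (ENSMUSG00000031373.4, chromosome X, 163976822 to 164027997, minus strand) supplies bicarbonate inside mitochondria, where pyruvate carboxylase works. It had 84.2 TPM from 11965 counts in replicate 2 and 60.4 TPM from 7314 counts in replicate 1 (72.3 ± 16.9 TPM, SD, n = 2). It came next after Car3 in replicate 2, and after Car3 and Car2 in replicate 1. Its ratio of 2.16 (95% counting interval 2.10 to 2.22) lay just past the 2-fold bound, as that of Car13 lay across it. The call of Car5b was lost with total counts (log2 ratio 0.61) and with the spike-in total (0.67) in place of TMM (1.11). Car5a, the other mitochondrial enzyme and in mouse mainly one of liver, had 0 counts in both libraries, for which 3 counts would be 0.107 TPM in replicate 2 and 0.125 TPM in replicate 1.

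The enzymes that use bicarbonate were expressed in both libraries. Of the 9 listed, 8 reached 1 TPM in both, led by pyruvate carboxylase, Pcx, with 466 and 464 TPM in replicates 2 and 1, acetyl-CoA carboxylase, Acaca, with 228 and 290, and the propionyl-CoA carboxylase subunit Pccb, with 171 and 123. Their median log2 ratio was 0.73. Pccb, Pcca and Mccc1 were over 2-fold higher in replicate 2 and the pyrimidine enzyme Cad over 2-fold higher in replicate 1. With total counts or the spike-in total none was higher in replicate 2, and the median was 0.22 and 0.28. Cps1, the urea cycle enzyme of liver, had 5 and 40 counts.

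Of the members on the cell surface, Car4 (ENSMUSG00000000805.14, chromosome 11, 84957786 to 84966044, plus strand) is anchored by a lipid to the outer membrane and is known from capillary endothelium. It had 56.7 TPM from 2409 counts in replicate 2 and 10.6 TPM from 402 counts in replicate 1 (33.7 ± 32.6 TPM, SD, n = 2). Its ratio was 7.91 (95% counting interval 7.11 to 8.81), above 99.4% of the genes tested. All 8 endothelial markers reached 1 TPM in both libraries, and replicate 2 had 6 of them over 2-fold higher, a median of 1.42 on the log2 scale, a count that fell to 1 with total counts and to 3 with the spike-in total. They were led by Egfl7 (656 and 370 TPM in replicates 2 and 1), Gpihbp1 (725 and 144) and the cadherin Cdh5 (192 and 110). Gpihbp1, which carries lipoprotein lipase across capillaries, had a ratio of 7.98 (7.69 to 8.28), close to that of Car4, whereas the other endothelial markers had ratios of 2.88 or less. The log2 ratio of Car4, 2.98, also lay within the range of the adipocyte markers, from 1.02 for Cfd to 4.09 for Lep. Whether Car4 came from endothelium was not tested.

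Car12 (ENSMUSG00000032373.10, chromosome 9, 66713686 to 66766845, plus strand), a membrane-spanning enzyme of epithelia such as kidney and endometrium, was the member most unlike between the libraries. It had 0.54 TPM from 41 counts in replicate 2 and 10.7 TPM from 1138 counts in replicate 1 (5.62 ± 7.18 TPM, SD, n = 2). Scaled counts were 21.0-fold higher in replicate 1 (95% counting interval 15.4 to 29.5). Car9 (ENSMUSG00000028463.10, chromosome 4, 43506966 to 43513729, plus strand), a membrane-spanning enzyme of stomach and bile duct epithelium that hypoxia induces in human tumours, was low throughout. It had 0.19 TPM from 15 counts in replicate 2 and 1.35 TPM from 73 counts in replicate 1, and was 3.69-fold higher in replicate 1 (2.10 to 6.92), with a mean scaled count of 40.8. Both were higher in the library with the higher epithelial and uterine markers given beside Car2, and the part of those cells was not tested.

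Genes that hypoxia induces were listed beside Car9, and their direction depended on the measure. All 10 targets reached 1 TPM in both libraries, led by Ldha (1099.66 and 816 TPM in replicates 2 and 1), Vegfa (402 and 367) and the mitophagy gene Bnip3 (176 and 39.2). Ldha, Bnip3 and Ndrg1 were over 2-fold higher in replicate 2 (1 gene with total counts or the spike-in total) and 0 in replicate 1. The median of the list was 0.56 on the log2 scale, and 0.06 with total counts and 0.12 with the spike-in total. By counts scaled with TMM, only the glucose transporter Slc2a1 (log2 ratio -0.38) and the collagen hydroxylase P4ha1 (-0.35) leaned to replicate 1. By TPM, which carries no such factor, 6 of the 10 were higher in replicate 1, among them Slc2a1 (17.4 and 35.1 TPM) and P4ha1 (9.23 and 18.45). Car6 (ENSMUSG00000028972.7, chromosome 4, 150187015 to 150201332, minus strand), the secreted enzyme of saliva, was not detectable at this depth. It had 2 counts in replicate 2 and 0 in replicate 1, under a floor of 3 counts that corresponds to 0.134 and 0.0875 TPM. Of 6 salivary gland markers, Smgc and Dcpp1 had 0 counts in both libraries, and the highest were Amy1 (99.4 and 35.8 TPM), Aqp5 (0.44 and 11.6) and Bhlha15 (0.06 and 0.28). Amy1, which is also made by liver and can share reads with its close copies, was the 1 marker at 1 TPM in both and was over 2-fold higher in replicate 2, whereas Aqp5 was over 2-fold higher in replicate 1 (median of the 2 eligible members -0.91).

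**Figure D4:**
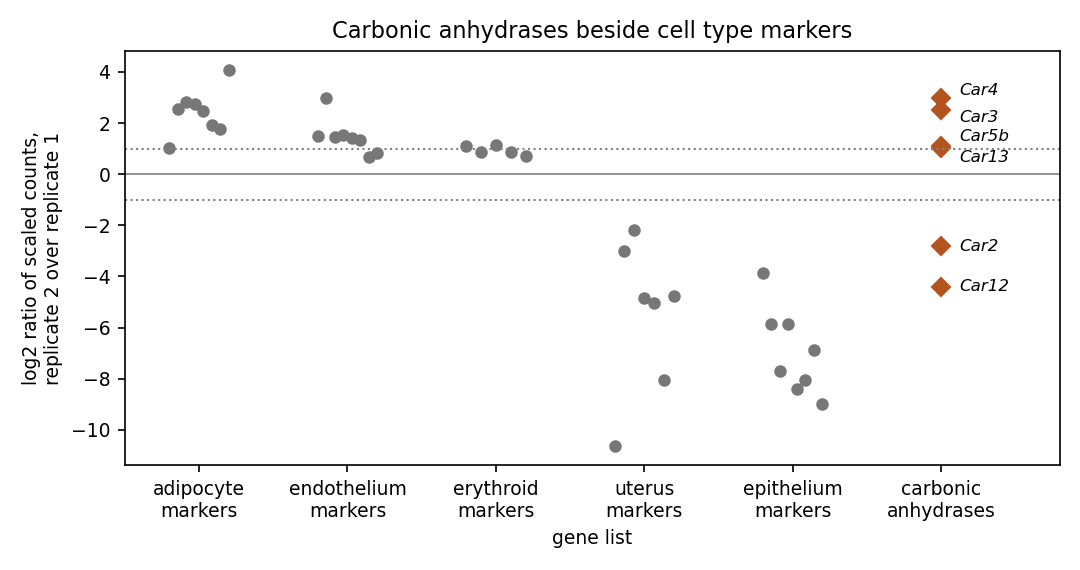
Log2 ratio of scaled counts, replicate 2 over replicate 1, of marker genes whose scaled counts averaged 100 or more (grey points, 1 column per list) beside the 6 members with as many counts (diamonds); dotted lines mark 2-fold, and Foxa2, with 0 counts in replicate 2, has no finite ratio and is not drawn. Car3 (2.51) and Car4 (2.98) lie among the adipocyte markers in height, and Car4 also at the top of the endothelial ones, near Gpihbp1 alone. Car2 (-2.81) and Car12 (-4.39) lie on the side of the uterus and epithelium lists.

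Transporters that carry bicarbonate or acid across membranes complete the pathway. Of 14 bicarbonate transporters 6 reached 1 TPM in both libraries, with a median log2 ratio of -0.34 over 8 eligible genes. The anion exchanger Slc4a2 had 50.4 TPM in replicate 2 and 78.2 TPM in replicate 1, and Slc4a3 13.3 and 43.1. Slc26a7 had 0 counts in replicate 2 and 58.2 TPM from 3766 counts in replicate 1, and with Slc26a9 it was over 2-fold higher in replicate 1, 2 genes that became 3 with total counts or the spike-in total. Slc4a1, the exchanger of red cells, had 15 and 10 counts. Of 8 acid and lactate transporters 6 passed, among them the chaperone Bsg (556 and 517 TPM in replicates 2 and 1) and the lactate carrier Slc16a1 (18.6 and 23.3), and 1, Slc16a3, was over 2-fold higher in replicate 1. The median of this list was 0.20, and turned to -0.30 and -0.24 with total counts and the spike-in total. The receptor phosphatases with a carbonic anhydrase domain, Ptprg (27.6 and 48.3 TPM) and Ptprz1 (0.06 and 2.34), had log2 ratios of 0.25 and -4.64, the second over 2-fold higher in replicate 1, a median of -2.19.

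Some of the 6 other genes of the family stood above members. Car11, a family member without enzyme activity, had 11.3 TPM in replicate 2 and 30.9 TPM in replicate 1, and Car7, a cytosolic enzyme known from neurons and muscle, 18.3 and 5.61. Car7 was over 2-fold higher in replicate 2 (ratio 5.20, 95% counting interval 4.53 to 5.98), close to the ratio of Car3, whereas Car11 was not called (0.513, 0.458 to 0.575), although it was over 2-fold higher in replicate 1 with total counts or the spike-in total. Car15 had 1.45 and 2.19 TPM, Car14 0.54 and 2.21, and Car10 1 count in each library. With Car5a, these 6 genes summed to 31.6 and 40.9 TPM, and 3 of them reached 1 TPM in both libraries. The median of the 2 eligible ones was 0.71.

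The transcripts behind these levels were not the same kind in each gene. Of Car3, the coding transcript Car3-201 (1679 nt) took 59.3% of the gene's TPM in replicate 2 and 67.0% in replicate 1 (63.1 ± 5.46%, SD, n = 2). The rest lay on Car3-202 (19.6% and 16.4%) and Car3-203 (21.2% and 16.6%), both annotated as retained intron, which together held 29.0% and 22.9% of the gene's counts. By this assignment of reads and its length correction, transcripts not annotated as coding held 40.7% of the Car3 TPM in replicate 2 and 33.0% in replicate 1. Whether Car3 RNA kept its introns was not tested.

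In Car2 the division of reads sets the level. Car2-202, a coding transcript of 587 nt, took 70.5% of the TPM in replicate 2 and 78.6% in replicate 1, but 36.7% and 47.6% of the counts, while the 1788 nt transcript Car2-201 took 27.9% and 19.8% of the TPM. Car2-201 alone stood at 2.21 and 19.6 TPM. With each gene's counts divided by the length of its longest transcript, a setting chosen after the values were seen, Car2 in replicate 1 had 1284 counts per kb and Car5b 2129, so the rank of Car2 above Car5b in that library rests on Car2-202.

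Car5b-201 took 99.7% and 99.9% of the TPM of Car5b in replicates 2 and 1, and Car4-201 90.6% and 95.5% of that of Car4. Car13 and Car8 each have a single transcript in the tables. Car12-201 took 36.3% in replicate 2, where the gene had 41 counts, and 62.9% in replicate 1, with its longer retained-intron transcript at 18.8% and 18.7%. Car9-201 took 90.8% and 73.7%, from 13.9 and 67.5 counts. All counts of Car1 were given to Car1-201, but by posterior mean its share was 66.4% and 50.2%. Transcript shares of the low members are therefore loose.

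**Figure D5:**
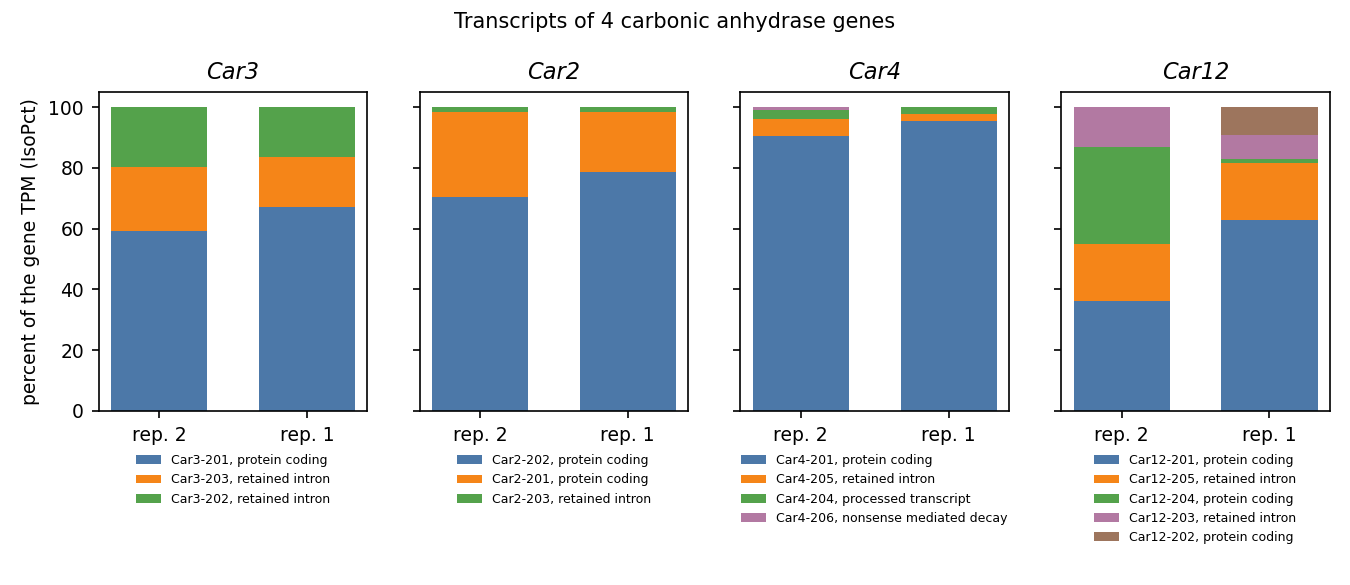
Percent of each gene's TPM assigned to its transcripts in replicate 2 (left bar) and replicate 1 (right bar) for Car3, Car2, Car4 and Car12, with the annotated type of each transcript. Car3-201 takes 59.3% and 67.0%, Car2-202 70.5% and 78.6%, Car4-201 90.6% and 95.5%, and Car12-201 36.3% and 62.9%.

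The precision of the levels differed by member. The authors' program gave an interval for each TPM, for Car5b 81.9 to 84.9 in replicate 2 and 58.4 to 61.2 in replicate 1, and for Car13 8.58 to 9.81 and 6.50 to 7.66. For Car3 the deposited TPM lay above its own interval in both libraries. It was 17735.5 against 17515.9 to 17629.9 in replicate 2, and 4631.52 against 4556.02 to 4611.5 in replicate 1. For Car9 in replicate 2, the TPM of 0.19 lay below its interval of 0.354 to 1.45, whose posterior mean was 0.83. The counts of all 10 members were whole numbers in both libraries to within 0.005, whereas Car15 had 68.23 and 88.14 counts.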

How the data were processed

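Per the labels, stranded paired reads of 76 nt were made from polyA RNA over 200 nt. The authors' deposited gene and transcript tables give expected counts, TPM and FPKM values, and percent of a gene's TPM per transcript (IsoPct), with posterior means and intervals. The notes beside the tables name build mm10 and annotation M4. No source used here names the counting program. The deposited mm9 junction and contig tables were not used.

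Symbols came by gene ID (42462 of 43346 genes matched), and coordinates and transcript names from GENCODE M21 (GRCm38, as mm10). Levels are deposited TPM, mean ± SD. Expected counts were rounded and scaled with TMM (edgeR 4.0.16, R 4.3.3) over 17223 genes that averaged 10 counts or more, with factors of 0.840 and 1.19 for replicates 2 and 1, and depths as in the report. No test was made. Ratio intervals were tested on simulated counts that varied by counting error alone, which is what the intervals assume. That simulation could not show how they hold for the wider variation between these libraries. DESeq2 1.42.0 size factors, total counts, spike-ins, FPKM, posterior means, thresholds of 0.5 and 5 TPM and pseudocounts of 0.1 and 1 were alternatives. Of each list the 3 genes of highest mean TPM are named, except 1 gene that is not reported here, and others were chosen after their values were seen. The members and lists were chosen with earlier results of these data known.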

Additional observations from a re-analysis of the deposited data

How the results depend on the processing

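The share of the members' TPM taken by Car3 ranged from 96.6% (counts) to 97.9% (longest transcript) under the alternatives, and was 99.1% without replicate 1 and 96.0% without replicate 2. The 5 members at 1 TPM in both libraries became 7 at 0.5 TPM (with Car12 and Car1), 6 without replicate 1 and 7 without replicate 2. The 5 members over 2-fold apart became 4 with total counts or spike-ins, which lost Car5b. They became 7 with a minimum of 10 counts or none, which added Car1 and Car9. For the changed TPM thresholds, single libraries and count minima, the share of all genes is not given. These changes therefore describe the members alone and are not set against other genes. No called member changed direction under any scaling or pseudocount run. Against TMM, total counts moved every log2 ratio by -0.50 and spike-ins by -0.44; genes over 2-fold higher in replicates 2 and 1 numbered 1394 and 1710 with TMM, 592 and 3007 with total counts, and 656 and 2817 with spike-ins. By counts in place of TPM, the mean share without Car3 was 68.8% for Car5b, against 41.8% by TPM. The members kept their order by FPKM, posterior mean and longest transcript. No library could be left out of a ratio. No paired analysis was possible because there is a single group. Depth limits Car6, with 2 and 0 counts, and the transcript shares of Car1, Car9 and Car12.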
